A study of Mus musculus with 6 samples.

Results

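The 44 genes considered here carry out the DNA damage checkpoint and DNA repair, and 43 of them were measured at 1 probe set each, of 18193 genes on the array. They were listed by name, from checkpoint signalling, the MRN complex, homologous recombination, the Fanconi anaemia pathway, mismatch repair, base excision and single-strand break repair, end joining and nucleotide excision repair, and where a gene had several probe sets the brightest on average was taken. The remaining listed gene, of the homologous recombination group, was not analysed here. The arrays compared T cells of miR-142 knockout mice (KO, 3 arrays) with those of wild-type littermates (WT, 3 arrays). All animals were male C57BL/6 mice aged 10 weeks, and T cells were enriched from each spleen by negative selection, which removes other cells and does not sort T cells positively. The knockout was not restricted to T cells by anything the labels state. RNA of each animal was amplified, labelled with biotin and hybridized to 1 Affymetrix array, which reports a log2 fluorescence intensity per probe set (a group of short probes for one transcript).

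A cell that meets broken or unreplicated DNA activates the kinases ATM and ATR, which phosphorylate CHK2 and CHK1 to hold the cell cycle while repair proceeds. Breaks are rejoined either directly by end joining, at any time of the cycle, or by homologous recombination, which copies the sister chromatid and so works in cells that have replicated their DNA. Many recombination and Fanconi genes are transcribed around DNA synthesis and are known targets of E2F factors, whereas end joining is used by resting lymphocytes and by those that assemble antigen receptors. The Mir142 locus yields 2 mature microRNAs, shown because they are what the KO animals lack. Capitals mark the seed, bases 2 to 8, which pairs with target transcripts. The sequences are those of RefSeq on GRCm38.p6, 5′ to 3′, from the plus strand of chromosome 11.
mmu-miR-142a-3p: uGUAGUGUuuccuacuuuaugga
mmu-miR-142a-5p: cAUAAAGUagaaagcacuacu

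Array medians lay between 5.70 and 5.77, and array-to-array correlations over probe sets were 0.986 to 0.995 within KO, 0.994 to 0.996 within WT and 0.940 to 0.965 between the groups. The Mir142 probe set averaged 5.92 ± 0.05 in KO and 7.91 ± 0.23 in WT (SD, n = 3 each). Whether the deletion covers the sequence behind that probe set is not given in the sources used here, and it checks the labels only if so. E2f7 and E2f8, atypical E2F factors that repress cell cycle genes, averaged 8.79 ± 0.26 and 11.02 ± 0.22 in KO against 5.49 ± 0.44 and 8.09 ± 0.11 in WT. All 15 T cell markers examined fell in KO, and their mean level was 9.31 to 10.65 on KO arrays and 12.08 to 12.10 on WT arrays. The KO preparations also carried markers of other blood lineages. Among neutrophil markers 11 of 14 rose, with mean levels of 9.79 to 12.37 in KO and 6.14 to 7.05 in WT. Mast cell, basophil and eosinophil markers rose for 10 of 11 genes (9.82 to 10.30 in KO, 5.69 to 5.82 in WT), monocyte and macrophage markers for 7 of 9 (8.52 to 9.15 in KO, 6.23 to 6.57 in WT) and erythroid markers for 10 of 11 (9.46 to 10.45 in KO, 7.15 to 7.49 in WT). Progenitor markers rose for 7 of 8 genes (9.65 to 9.96 in KO, 7.17 to 7.21 in WT) and megakaryocyte and platelet markers for 4 of 5 (7.62 to 7.85 in KO, 6.19 to 6.34 in WT). The mean of 9 B cell markers was 6.23 to 7.30 in KO and 6.04 to 6.41 in WT, and of 5 natural killer cell markers 3 fell. The B cell means of the groups overlapped. The part of these other cells in the differences between KO and WT was not tested. In such bulk samples, fewer cells of a type and less RNA per cell cannot be told apart.

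Checkpoint and repair genes mostly stood higher in KO, but by pathway and not as a whole. By limma, at a Benjamini-Hochberg adjusted p below 0.05 over all probe sets, 24 of the 43 genes rose and 5 fell in KO, against a background of 18.6% of all genes that rose and 18.6% that fell (37.2% in either direction). The shares among the repair genes were 55.8% and 11.6%. Their median difference, KO minus WT, was 0.69 on the log2 scale, beside -0.06 over all genes. The 3 KO arrays did not overlap the 3 WT arrays for 33 of the 43 genes (76.7%), 28 with KO above and 5 with KO below, where 53.8% of all genes had no overlap (24.1% with KO above, 29.7% with KO below). A change of at least 1.5-fold was seen for 23 of the genes that rose and 4 of those that fell, beside 13.5% and 10.8% of all genes. Of the 43 genes, all 8 of the recombination group rose, whereas 2 of the 5 in the nucleotide excision group fell and the other 3 did not pass. With the levels rescaled by the hybridization controls of each array (transcripts added in fixed amounts), all differences shifted up by 0.37, and 33 genes rose and 3 fell. No share of all genes under that scaling is given here, so the 18.6% is no background for these counts. The 9 genes that passed as rises after that scaling and not as deposited were Atr (0.50), Nbn (0.56), Fancc (0.45), Fancl (0.77), Fancm (0.64), Msh3 (0.34), Xrcc1 (0.65), Lig3 (0.43) and Ercc2 (0.56).

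**Figure D1:**
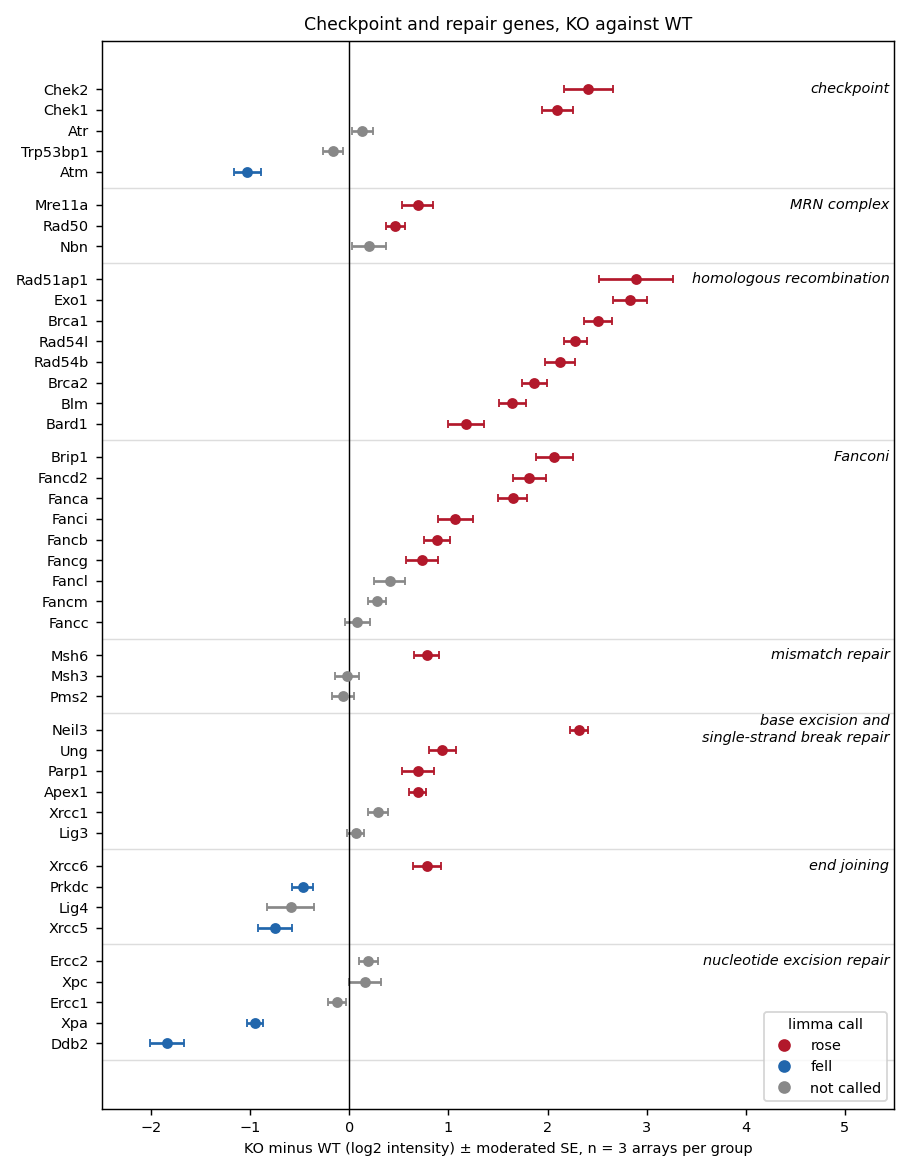
Difference of each of the 43 genes, KO minus WT in log2 intensity, with its moderated standard error (n = 3 arrays per group), sorted within 8 pathways and coloured by limma call. All 8 recombination genes lie right of 0, from 1.18 to 2.89, and the largest fall is that of Ddb2 at -1.84.

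The promoters were searched for letters that factors of the cell cycle are known to bind. RefSeq promoters on GRCm38.p6, 250 bases before to 50 after the start site, were held for 35 of the 43 genes. They were searched on both strands for the E2F motif as TTTCCCGC or TTTGGCGC, neither of which contains the other, and for TTTGAA, the core of the cell cycle homology region (CHR). The E2F letters were in 7 of the 35 promoters (20%), among them 6 of 20 genes that rose, 1 of 12 that did not pass and 0 of 3 that fell. Of 14452 measured genes with a promoter, 2.77% held them. Of 19 genes with a promoter in the list of cell cycle genes used below, 6 held them (31.6%). The CHR letters were in 1 of the 35, that of Bard1, in 15.7% of all measured genes and in 8 of those 19 cell cycle genes (42.1%). CCAAT, which NF-Y binds, was in 20 of the 35 (57.1%), and in 42% of all. It was in 12 of 20 genes that rose, 5 of 12 that did not pass and 3 of 3 that fell. Of the same 19 cell cycle genes 15 held it (78.9%). These matches describe the letters and not binding, and only exact matches were counted. A promoter scored without the letters may therefore hold close forms of the motif. The sequences are those of 5 promoters with the E2F letters whose genes rose, chosen to show where the letters lie, then that of Msh3, which holds them and did not pass, and that of Xpa, which fell and holds none. Capitals mark the E2F letters on either strand and, in Bard1, TTTGAA as well.
Chek2, chr5:110839733-110840032, plus strand: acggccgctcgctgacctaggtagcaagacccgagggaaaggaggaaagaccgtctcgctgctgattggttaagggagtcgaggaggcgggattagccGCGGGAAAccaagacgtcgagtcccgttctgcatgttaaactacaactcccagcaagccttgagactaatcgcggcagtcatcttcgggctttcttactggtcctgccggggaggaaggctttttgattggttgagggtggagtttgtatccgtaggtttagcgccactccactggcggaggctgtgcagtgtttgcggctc
Brca2, chr5:150522371-150522670, plus strand: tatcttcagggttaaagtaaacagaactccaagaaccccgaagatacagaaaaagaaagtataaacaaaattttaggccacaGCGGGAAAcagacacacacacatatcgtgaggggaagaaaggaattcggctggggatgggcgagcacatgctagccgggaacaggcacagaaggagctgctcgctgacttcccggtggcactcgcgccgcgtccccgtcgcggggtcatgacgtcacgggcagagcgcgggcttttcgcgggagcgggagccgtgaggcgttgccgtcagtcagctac
Bard1, chr1:71102923-71103222, minus strand: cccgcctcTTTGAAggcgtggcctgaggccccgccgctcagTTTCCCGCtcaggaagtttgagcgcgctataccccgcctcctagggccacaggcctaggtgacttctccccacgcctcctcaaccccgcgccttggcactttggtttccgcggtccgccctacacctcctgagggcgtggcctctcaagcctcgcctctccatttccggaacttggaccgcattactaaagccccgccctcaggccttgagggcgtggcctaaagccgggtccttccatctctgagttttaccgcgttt
Msh6, chr17:87974800-87975099, plus strand: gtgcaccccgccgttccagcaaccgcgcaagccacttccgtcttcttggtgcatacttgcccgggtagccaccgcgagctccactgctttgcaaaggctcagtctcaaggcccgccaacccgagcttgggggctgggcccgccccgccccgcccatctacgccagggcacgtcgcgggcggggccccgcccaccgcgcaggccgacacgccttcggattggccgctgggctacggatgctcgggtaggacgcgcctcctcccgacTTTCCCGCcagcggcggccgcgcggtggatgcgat
Xrcc6, chr15:82016119-82016418, plus strand: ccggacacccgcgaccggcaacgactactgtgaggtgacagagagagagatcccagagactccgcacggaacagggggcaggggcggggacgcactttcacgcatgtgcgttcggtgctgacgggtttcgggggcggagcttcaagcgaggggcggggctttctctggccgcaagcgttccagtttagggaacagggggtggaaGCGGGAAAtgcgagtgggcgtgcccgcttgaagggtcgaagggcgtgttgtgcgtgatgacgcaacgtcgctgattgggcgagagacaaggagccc
Msh3, chr13:92354954-92355253, minus strand: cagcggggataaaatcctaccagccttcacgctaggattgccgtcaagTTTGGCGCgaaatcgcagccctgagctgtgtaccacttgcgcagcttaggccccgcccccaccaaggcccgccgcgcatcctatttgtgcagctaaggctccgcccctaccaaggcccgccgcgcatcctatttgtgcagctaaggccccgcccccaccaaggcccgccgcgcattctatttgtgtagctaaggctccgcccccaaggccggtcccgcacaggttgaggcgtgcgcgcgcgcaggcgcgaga
Xpa, chr4:46196262-46196561, minus strand: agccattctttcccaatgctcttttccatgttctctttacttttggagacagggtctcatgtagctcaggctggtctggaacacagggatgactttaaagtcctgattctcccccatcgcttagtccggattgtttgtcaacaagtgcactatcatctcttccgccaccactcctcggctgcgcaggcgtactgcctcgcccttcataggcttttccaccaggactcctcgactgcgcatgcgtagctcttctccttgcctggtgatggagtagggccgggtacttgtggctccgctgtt
Counted from the start site, the E2F letters began at -152 in Chek2, -168 in Brca2, -209 in Bard1 and -46 in Xrcc6. They began at 16 in Msh6 and at -202 in Msh3. In Fancg, which also rose, they began at -52.

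Checkpoint signalling held 2 rises (40%) and 1 fall (20%) among 5 genes, beside 18.6% each way over all genes. The share that fell was near that background. Both effector kinases rose and Atm fell. Chek2, the kinase that ATM activates at breaks, had levels of 9.11, 9.76 and 8.98 in KO and 6.60, 6.74 and 7.28 in WT. It rose 5.32-fold (2.41 ± 0.25 log2, SE, n = 3 per group, adjusted p = 0.000428). Every KO array stood well above every WT array. Chek1, the kinase that ATR activates when replication stalls, had levels of 9.32, 9.83 and 9.47 in KO and 7.32, 7.36 and 7.64 in WT. Its rise was 4.29-fold (2.10 ± 0.15, adjusted p = 0.000113), again without overlap. Of its 4 other probe sets, 2 rose by 2.41 and 2.38, and 2 dim ones differed by 0.08 and -0.13. Atm, the kinase that senses double-strand breaks, had levels of 8.50, 8.18 and 8.64 in KO and 9.40, 9.59 and 9.42 in WT. It fell 2.04-fold (-1.03 ± 0.13, adjusted p = 0.00122), all KO arrays lying below all WT arrays. A second Atm probe set fell by 1.07. Atr, which senses single-stranded DNA, had levels of 8.93, 9.20 and 9.14 in KO and 8.84, 9.06 and 8.98 in WT, so that the groups overlapped (0.13 ± 0.11, adjusted p = 0.408). Trp53bp1, which protects break ends and steers them to end joining, averaged 9.93 ± 0.10 in KO and 10.10 ± 0.12 in WT and did not pass (-0.17 ± 0.10, adjusted p = 0.264).

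Among 18 further checkpoint genes 10 rose (55.6%) and 1 fell (5.56%), beside 18.6% each way over all genes. Clspn, which brings CHK1 to ATR, rose by 2.24 ± 0.14, Wee1, a kinase that restrains CDK1, by 2.05 ± 0.09 and H2ax, the histone that is phosphorylated around breaks, by 1.87 ± 0.12. Rad9a, a subunit of the clamp loaded at damage, fell by 0.32 ± 0.08. That call was lost without any 1 of the KO arrays or without WT replicate 2 or 3, where the differences were -0.34, -0.30, -0.33, -0.28 and -0.33. It was also lost with the replicate number as a block, and scaled to hybridization controls the difference was 0.04.

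The MRN complex, which binds break ends and activates ATM, moved less. Its nuclease Mre11a had levels of 9.0005, 9.52 and 9.14 in KO and 8.41, 8.47 and 8.72 in WT, a rise of 1.61-fold (0.69 ± 0.15, adjusted p = 0.0137). The call on Mre11a was lost without WT replicate 1 (0.63) or 2 (0.66). Rad50, the subunit that tethers the ends, had levels of 9.43, 9.67 and 9.58 in KO and 9.01, 9.13 and 9.15 in WT and rose 1.38-fold (0.46 ± 0.10, adjusted p = 0.00999). With the mean of its probe sets in place of the brightest, Rad50 differed by 0.25 and did not pass. Neither gene's groups overlapped. Nbn, the subunit that docks ATM, had levels of 8.81, 9.38 and 9.01 in KO and 8.73, 8.78 and 9.11 in WT, with overlap and no call (0.20 ± 0.17, adjusted p = 0.441). KO replicate 2 was the highest array for all 3 subunits.

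Homologous recombination held the most uniform change: 8 of 8 measured genes rose, with a median difference of 2.20 and no overlap between the groups in any of them. Rad51ap1, which promotes the pairing of a broken strand with its template, had levels of 9.84, 11.21 and 9.67 in KO and 7.33, 7.28 and 7.43 in WT. Its rise of 7.42-fold was the largest among the 43 genes (2.89 ± 0.37, adjusted p = 0.00114). KO replicate 2 stood apart, and without it the difference was 2.41. Its 3 other probe sets rose too, by 2.74, 1.94 and 3.26. Exo1, the exonuclease that resects break ends, had levels of 8.46, 9.11 and 8.79 in KO and 5.88, 5.84 and 6.14 in WT, a rise of 7.13-fold (2.83 ± 0.17, adjusted p = 5.69e-05). Brca1, which promotes resection of break ends, had levels of 9.64, 9.98 and 9.46 in KO and 7.05, 7.28 and 7.23 in WT and rose 5.69-fold (2.51 ± 0.14, adjusted p = 4.88e-05). For both genes the gap between the groups was several times the spread within either. Rad54l, a motor that drives strand invasion, had levels of 9.29, 9.66 and 9.50 in KO and 7.20, 7.11 and 7.30 in WT (4.85-fold, 2.28 ± 0.12, adjusted p = 3.33e-05). Its paralogue Rad54b had levels of 6.72, 6.60 and 6.63 in KO and 4.23, 4.84 and 4.50 in WT (4.37-fold, 2.13 ± 0.15, adjusted p = 0.000103). The KO arrays were close together for Rad54b, and its spread was larger in WT, where it was dim. Brca2, which acts on the resected single-stranded DNA, averaged 9.67 ± 0.21 in KO and 7.80 ± 0.12 in WT (3.65-fold). Blm, the helicase that dissolves joined chromosomes, averaged 9.83 ± 0.25 in KO and 8.18 ± 0.07 in WT (3.13-fold), and Bard1, the obligate partner of BRCA1, 6.45 ± 0.17 in KO and 5.27 ± 0.35 in WT (2.27-fold). The differences of Brca2, Blm and Bard1 passed the test as well (adjusted p = 8.67e-05, 0.000163 and 0.00267).

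In the same arrays, 22 of 22 cell cycle genes of dividing cells rose, with a median difference of 2.17 beside the 2.20 of the recombination genes. Aurkb, a mitotic kinase, rose by 2.88 ± 0.17, Cdc6, which licenses replication origins, by 2.67 ± 0.18 and Bub1, of the spindle checkpoint, by 2.56 ± 0.15. The mean level of that list was 11.30 to 11.74 in KO and 9.50 to 9.64 in WT. The part of cell division in the recombination difference was not tested. Other recombination genes moved less uniformly, 9 of 23 rising (39.1%) and 4 falling (17.4%), beside 18.6% each way over all genes. Gen1, a nuclease that cuts Holliday junctions, rose by 1.89 ± 0.24, Xrcc3, which acts in strand exchange, by 1.57 ± 0.13 and Eme1, a nuclease subunit, by 1.48 ± 0.14. Uimc1 (RAP80), which holds BRCA1 at ubiquitinated chromatin, fell by 0.63 ± 0.09, Rad52, an annealing protein, by 0.49 ± 0.13 and Mus81, the catalytic partner of EME1, by 0.44 ± 0.08. The partners Eme1 and Mus81 thus differed in opposite directions. The Rad52 call was lost without KO replicate 1 or 3 or WT replicate 2 or 3 (-0.40, -0.49, -0.47 and -0.42), and with the mean of its probe sets (-0.27). Scaled to hybridization controls, Uimc1, Rad52 and Mus81 were at -0.27, -0.13 and -0.08 and none of the 3 passed.

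**Figure D2:**
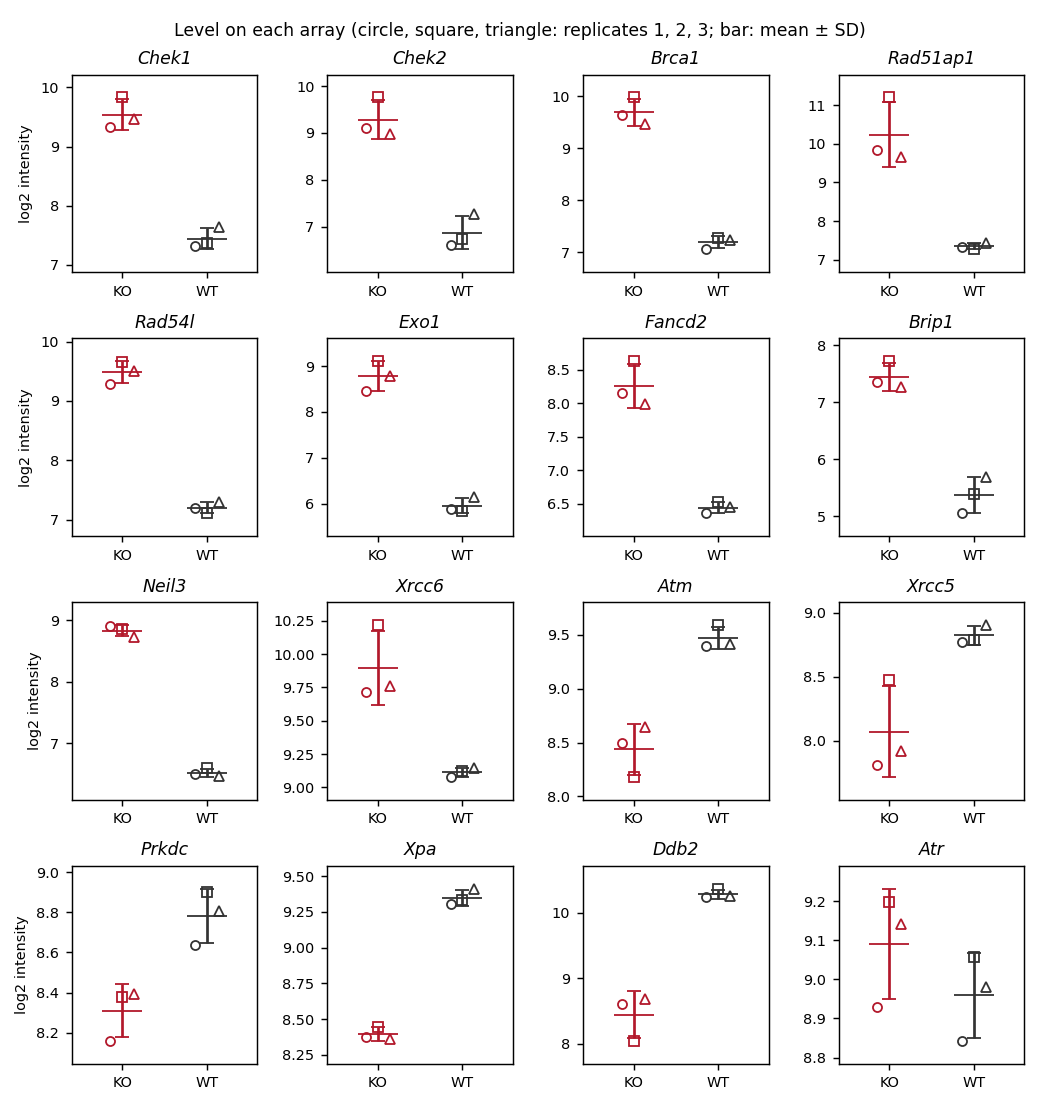
Log2 intensity of 16 genes on each of the 3 KO and 3 WT arrays, with the mean and SD of each group; each panel has its own vertical axis. KO arrays lie above WT arrays for the first 10 genes, below them for Atm, Xrcc5, Prkdc, Xpa and Ddb2, and overlap them for Atr.

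The Fanconi anaemia pathway repairs crosslinks between DNA strands. A core complex with the ligase FANCL attaches ubiquitin to the FANCD2 and FANCI pair, which then recruits nucleases and recombination proteins. Of its 9 genes 6 rose (66.7%) and 0 fell, beside 18.6% each way over all genes. Their median difference was 0.88. The largest rise was that of Brip1, the helicase partner of BRCA1, with levels of 7.35, 7.72 and 7.27 in KO and 5.05, 5.38 and 5.69 in WT (4.19-fold, 2.07 ± 0.19, adjusted p = 0.000248). Of the ubiquitinated pair, Fancd2 had levels of 8.16, 8.63 and 7.98 in KO and 6.36, 6.52 and 6.45 in WT (3.52-fold, 1.82 ± 0.16, adjusted p = 0.000254). Its partner Fanci had levels of 8.26, 8.87 and 8.36 in KO and 7.32, 7.34 and 7.62 in WT (2.10-fold, 1.07 ± 0.17, adjusted p = 0.00331). The groups did not overlap for any of these 3 genes, and KO replicate 2 was the highest array in each. One further Fancd2 probe set rose by 1.61, another differed by 0.23, and a dim one fell by 0.34 (adjusted p = 0.0295), the only opposite call among the other probe sets of genes that changed. Within the core complex, Fanca had levels of 8.85, 8.94 and 8.61 in KO and 7.10, 7.42 and 6.93 in WT (3.13-fold, 1.65 ± 0.15, adjusted p = 0.000252). Fancb, its X-linked subunit, had levels of 7.17, 7.35 and 7.20 in KO and 6.10, 6.52 and 6.45 in WT (1.84-fold, 0.88 ± 0.13, adjusted p = 0.00202). Both core subunits were clear of WT on each KO array. Fancg averaged 6.94 ± 0.29 in KO and 6.21 ± 0.19 in WT (1.66-fold, adjusted p = 0.0138), a call lost without WT replicate 1 (0.62) and with the mean of its probe sets (0.53).

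Fancl, Fancm and Fancc did not pass. Fancc, another core subunit, had levels of 7.50, 7.55 and 7.29 in KO and 7.58, 7.21 and 7.30 in WT, so that the groups were interleaved (0.08 ± 0.13, adjusted p = 0.681). The ligase Fancl averaged 9.14 ± 0.27 in KO and 8.73 ± 0.18 in WT (0.41 ± 0.16, adjusted p = 0.0951). Fancm, the translocase that anchors the core complex to DNA, averaged 7.39 ± 0.05 in KO and 7.12 ± 0.10 in WT (0.28 ± 0.09, adjusted p = 0.0559). For both, the KO arrays all lay above the WT arrays, and Fancm passed without WT replicate 3 (0.33), with array weights and with dim probe sets left out (0.28 in both). After hybridization-control scaling Fancc, Fancl and Fancm all rose, by 0.45, 0.77 and 0.64. Of 8 further Fanconi genes 2 rose (25%, beside 18.6% of all genes) and 0 fell. These were Ube2t, the ubiquitin-conjugating partner of FANCL, by 1.30 ± 0.16, and Usp1, which removes that ubiquitin, by 0.47 ± 0.10.

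Mismatch repair showed 1 rise among 3 genes (33.3%), beside the 18.6% of all genes that rose. Msh6, which recognises single mispaired bases, had levels of 10.72, 11.12 and 10.73 in KO and 10.04, 10.10 and 10.07 in WT, a rise of 1.72-fold without overlap (0.78 ± 0.12, adjusted p = 0.00298). Msh3, which replaces MSH6 for longer loops, had levels of 8.74, 9.15 and 8.89 in KO and 8.98, 8.88 and 8.98 in WT and overlapped fully (-0.02 ± 0.12, adjusted p = 0.911). Its promoter holds the E2F letters printed above. Pms2, which nicks the strand to be repaired, averaged 8.60 ± 0.18 in KO and 8.66 ± 0.06 in WT (-0.07 ± 0.11, adjusted p = 0.695). The 2 further mismatch repair genes, Mlh3 (0.03 ± 0.16, adjusted p = 0.922) and Pms1 (-0.17 ± 0.15, adjusted p = 0.451), did not pass and were named after their values were seen.

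Base excision and single-strand break repair, which remove damaged bases and seal the resulting nicks, held 4 rises among 6 genes (66.7%) and no fall. Rises and falls each made up 18.6% of all genes. Neil3, a glycosylase known to be expressed in dividing cells, had levels of 8.91, 8.86 and 8.74 in KO and 6.50, 6.59 and 6.46 in WT. It rose 4.99-fold with the smallest adjusted p of the 43 genes (2.32 ± 0.09, adjusted p = 1.44e-05), the arrays of each group being within 0.17 of one another. Ung, the glycosylase that removes uracil, had levels of 9.22, 9.51 and 9.33 in KO and 8.32, 8.26 and 8.67 in WT (1.92-fold, 0.94 ± 0.14, adjusted p = 0.00194). Apex1, the endonuclease that cuts at the site left without a base, had levels of 11.35, 11.37 and 11.28 in KO and 10.61, 10.57 and 10.76 in WT (1.61-fold, 0.69 ± 0.09, adjusted p = 0.00113). Its 2 other probe sets rose by 0.72 and 0.80. Parp1, the poly(ADP-ribose) polymerase that marks breaks, had levels of 10.51, 11.18 and 10.86 in KO and 10.21, 10.13 and 10.13 in WT (1.62-fold, 0.69 ± 0.16, adjusted p = 0.016). KO arrays were spread more widely for Parp1 than for the other 3, and its call was lost without WT replicate 2 or 3 (0.68 in both). The scaffold Xrcc1 averaged 9.16 ± 0.13 in KO and 8.87 ± 0.10 in WT and did not pass (0.29 ± 0.10, adjusted p = 0.0754), although the groups did not overlap. Lig3, the ligase that XRCC1 carries, had levels of 8.74, 8.92 and 8.85 in KO and 8.70, 8.83 and 8.80 in WT and did not pass (0.06 ± 0.09, adjusted p = 0.643). One of its 4 other probe sets rose by 0.79, the only call among other probe sets of genes that did not pass.

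Of 16 further genes of these pathways 6 rose (37.5%) and 4 fell (25%), beside 18.6% each way over all genes. Lig1 and Fen1, which join and trim replicated strands as well as repaired ones, rose by 1.57 ± 0.11 and 1.23 ± 0.12, and Aplf, an end joining cofactor that binds poly(ADP-ribose), by 1.01 ± 0.15. The glycosylases Neil1, Ogg1 and Mutyh, which deal with oxidised bases or their mispairs, fell by 0.90 ± 0.16, 0.68 ± 0.12 and 0.57 ± 0.08. Neil3 and Neil1, glycosylases of one family, thus differed in opposite directions. Scaled to hybridization controls, Ogg1 was at -0.31 and Mutyh at -0.21 and neither passed. The Ogg1 call was also lost with the mean of its probe sets (-0.30).

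End joining held falls and a rise in the same complex. Its 4 listed genes gave 1 rise (25%) and 2 falls (50%), beside 18.6% each way over all genes. Xrcc6 and Xrcc5 encode Ku70 and Ku80, the 2 subunits of the ring that binds break ends. Xrcc6 had levels of 9.71, 10.22 and 9.76 in KO and 9.08, 9.12 and 9.14 in WT, a rise of 1.72-fold (0.78 ± 0.14, adjusted p = 0.00549). Xrcc5 had levels of 7.82, 8.47 and 7.93 in KO and 8.77, 8.79 and 8.90 in WT, a fall of 1.68-fold (-0.75 ± 0.17, adjusted p = 0.0148). The KO arrays were clear of the WT arrays in both, above them for Xrcc6 and below them for Xrcc5, with KO replicate 2 the highest KO array in each. Prkdc, the kinase that Ku recruits, had levels of 8.16, 8.38 and 8.39 in KO and 8.64, 8.90 and 8.81 in WT and fell 1.39-fold (-0.47 ± 0.11, adjusted p = 0.0159). The Xrcc5 call was lost without KO replicate 3 (-0.68) or WT replicate 3 (-0.71), and the Prkdc call without WT replicate 2 (-0.41). Scaled to hybridization controls, both calls were lost, Xrcc5 at -0.38 and Prkdc at -0.11. Lig4, the ligase of the final step, had levels of 6.66, 7.40 and 6.59 in KO and 7.25, 7.39 and 7.79 in WT and did not pass (-0.59 ± 0.24, adjusted p = 0.109). Its overlap came from KO replicate 2, without which it fell by 0.85 and passed. Xrcc5, Lig4 and Prkdc were each measured by a single probe set.

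Of 7 further end joining genes 1 rose (14.3%) and 2 fell (28.6%), beside 18.6% each way over all genes. Nhej1 (XLF), which aligns the ends, rose by 0.43 ± 0.09, a call lost with the mean of its probe sets (0.19). Xrcc4, the partner of LIG4, fell by 1.33 ± 0.12, and the polymerase Polm by 0.83 ± 0.11. Rag1, part of the recombinase of immature lymphocytes, was chosen after its values were seen. It had levels of 6.40, 11.41 and 6.03 in KO and 4.10, 4.47 and 4.25 in WT and did not pass (3.68 ± 1.29, adjusted p = 0.0717). KO replicate 2 stood far above the other KO arrays.

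Nucleotide excision repair, which removes bulky and ultraviolet lesions, held 2 falls among its 5 listed genes (40%), and the other 3 did not pass. Over all genes 18.6% fell. Ddb2, which finds ultraviolet lesions in chromatin and is a known p53 target in human cells, had levels of 8.61, 8.04 and 8.68 in KO and 10.24, 10.36 and 10.26 in WT. It fell 3.58-fold (-1.84 ± 0.17, adjusted p = 0.00028), the largest fall of the 43 genes, and its second probe set fell by 1.83. Xpa, which verifies the damage, had levels of 8.38, 8.45 and 8.36 in KO and 9.30, 9.33 and 9.41 in WT. Its fall of 1.94-fold (-0.96 ± 0.08, adjusted p = 0.000194) rested on arrays that lay within 0.11 of one another in each group. Its 2 other probe sets, both dim, differed by -0.56 and -0.26 and did not pass. Ercc1, a subunit of the nuclease that cuts 5′ of the lesion, had levels of 9.58, 9.46 and 9.48 in KO and 9.64, 9.53 and 9.73 in WT, with overlap (-0.13 ± 0.09, adjusted p = 0.344). The helicase Ercc2 averaged 8.15 ± 0.06 in KO and 7.95 ± 0.12 in WT (0.19 ± 0.09, adjusted p = 0.176), with all KO arrays above all WT arrays. It rose by 0.56 after hybridization-control scaling. Xpc, the general damage sensor, averaged 9.15 ± 0.32 in KO and 8.997 ± 0.10 in WT (0.16 ± 0.16, adjusted p = 0.514).

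Of 16 further excision genes 3 rose (18.8%) and 5 fell (31.2%), beside 18.6% each way over all genes. Ddb1, the adaptor that pairs with DDB2 and with many other ubiquitin ligase receptors, rose by 0.80 ± 0.11, opposite to Ddb2. Gtf2h4 and Ccnh, subunits of the transcription factor TFIIH, rose by 0.56 ± 0.12 and 0.41 ± 0.11. The Ccnh call was lost without KO replicate 2 or WT replicate 1 or 2 (0.33, 0.37 and 0.38) and with the replicate number as a block. Uvssa, of transcription-coupled repair, fell by 0.77 ± 0.13, and Ercc5 and Ercc4, the nucleases that cut on either side of the lesion, by 0.75 ± 0.11 and 0.40 ± 0.08. Scaled to hybridization controls, these 3 were at -0.40, -0.38 and -0.04 and did not pass.

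Across all 102 further genes of the damage response, 34 rose (33.3%) and 21 fell (20.6%), with a median difference of 0.13. Over all genes 18.6% rose and 18.6% fell, so the share that fell was near the background. Scaled to hybridization controls, 62 of the 102 rose and 5 fell, counts without a share of all genes under that scaling beside them. The 12 translesion synthesis and direct reversal genes among the 102 gave 3 rises (25%) and 5 falls (41.7%). Polh, the polymerase that reads through ultraviolet lesions, rose by 0.74 ± 0.18, Rev1, a scaffold polymerase, by 0.58 ± 0.09 and Rad18, the ligase that marks stalled forks, by 0.57 ± 0.13. The helicase-like ligase Hltf fell by 0.85 ± 0.09, the polymerase Poli by 0.79 ± 0.09 and Rev3l, the catalytic subunit of polymerase zeta, by 0.55 ± 0.09. The Polh call was lost without WT replicate 1 or 2 (0.70 and 0.72) and with the mean of its probe sets (0.35), and that of Rad18 without WT replicate 2 (0.52). Rev3l was at -0.19 after hybridization-control scaling and did not pass.

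Targets of p53, which the checkpoint activates, did not move one way: 3 of 15 rose (20%) and 7 fell (46.7%), with a median difference of -0.20. The share that rose was near the 18.6% of all genes. Perp, a membrane protein, rose by 1.69 ± 0.22, Cdkn1a, the CDK inhibitor p21, by 1.58 ± 0.13 and the stress protein Sesn2 by 0.38 ± 0.09. The death receptor Fas fell by 1.70 ± 0.27, the antiproliferative Btg2 by 1.27 ± 0.15 and the RNA-binding protein Zmat3 by 1.23 ± 0.11. The Sesn2 call was lost without KO replicate 3 or WT replicate 1 or 2 (0.33, 0.37 and 0.37). The fall of Ddb2 had the direction of Fas, Btg2 and Zmat3 and of all 15 T cell markers, and was opposite to Perp, Cdkn1a and Sesn2. The part of p53 or of the T cell share in the fall of Ddb2 was not tested.

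**Figure D3:**
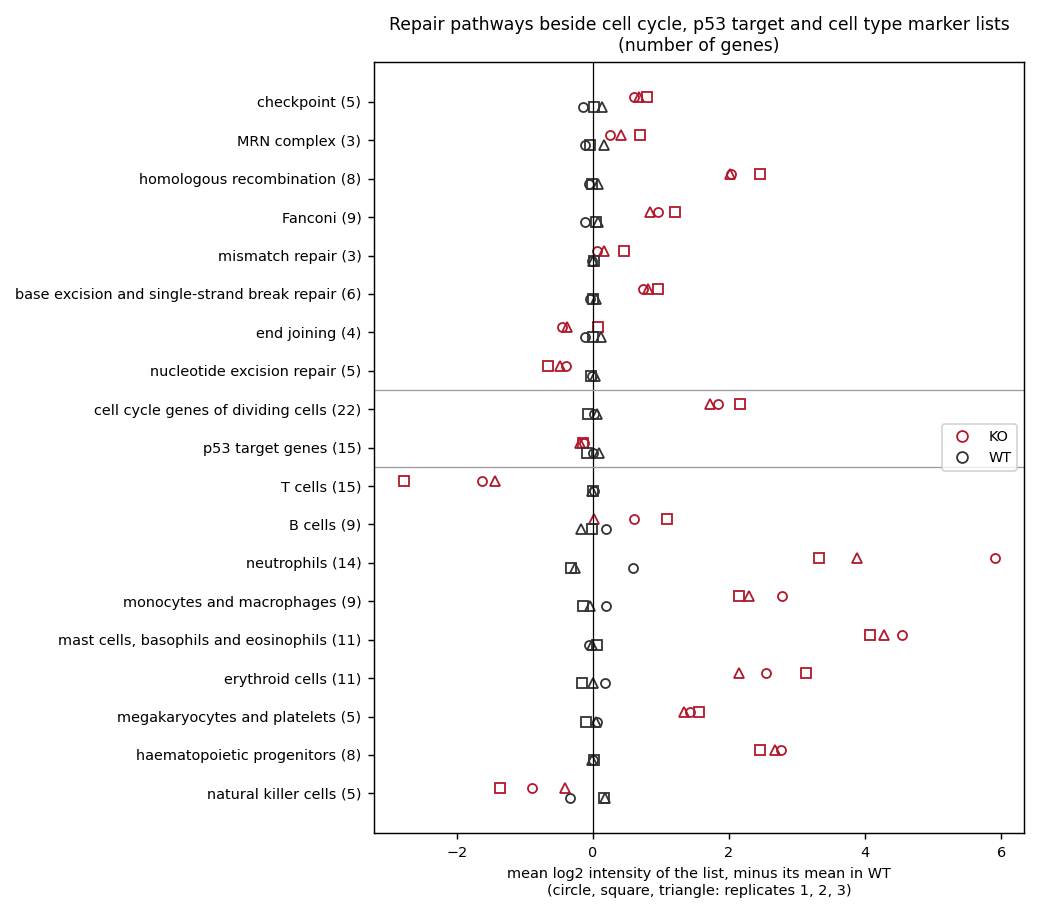
Mean log2 intensity of each list on each array, minus the mean of that list over the 3 WT arrays, for the 8 repair pathways, 2 further gene lists and 9 cell type marker lists, with the number of genes in parentheses. The list mean shifts by 2.17 for the recombination genes and by 1.91 for the cell cycle genes. T cell markers lie lowest on KO replicate 2, and neutrophil markers highest on KO replicate 1.

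The KO arrays differed among themselves more than the WT arrays did. The range over the 3 arrays was wider in KO for 29 of the 43 genes, and for 10499 of all 18193 genes. The median SD was 0.21 in KO and 0.11 in WT, beside 0.13 in KO and 0.11 in WT over all genes. KO replicate 2 had the highest KO level for 33 of the 43 genes (76.7%) and for 21 of the 24 that rose. It was the highest KO array for 44.8% of all genes and 61.5% of all genes that rose. The same array was the highest for 22 of 22 cell cycle genes. It had the lowest T cell marker mean, 9.31 beside 10.46 and 10.65 in KO replicates 1 and 3, and the highest erythroid mean, 10.45 beside 9.86 and 9.46. Its B cell marker mean was also the highest, 7.30 beside 6.81 and 6.23. Ebf1, a B lineage transcription factor, was at 11.22 there beside 5.91 and 5.64, and Cd79a, of the B cell receptor, at 9.40 beside 6.58 and 6.18, both named after their values were seen. Other markers of that list went the other way. KO replicate 2 was the lowest KO array for Ms4a1 (5.89 beside 8.80 and 7.71), Blk, Cr2 and Fcer2a. The part of T, erythroid and B cells in the order of the KO arrays was not tested. Without KO replicate 2, 24 of the 43 genes rose and 6 fell.

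**Figure D4:**
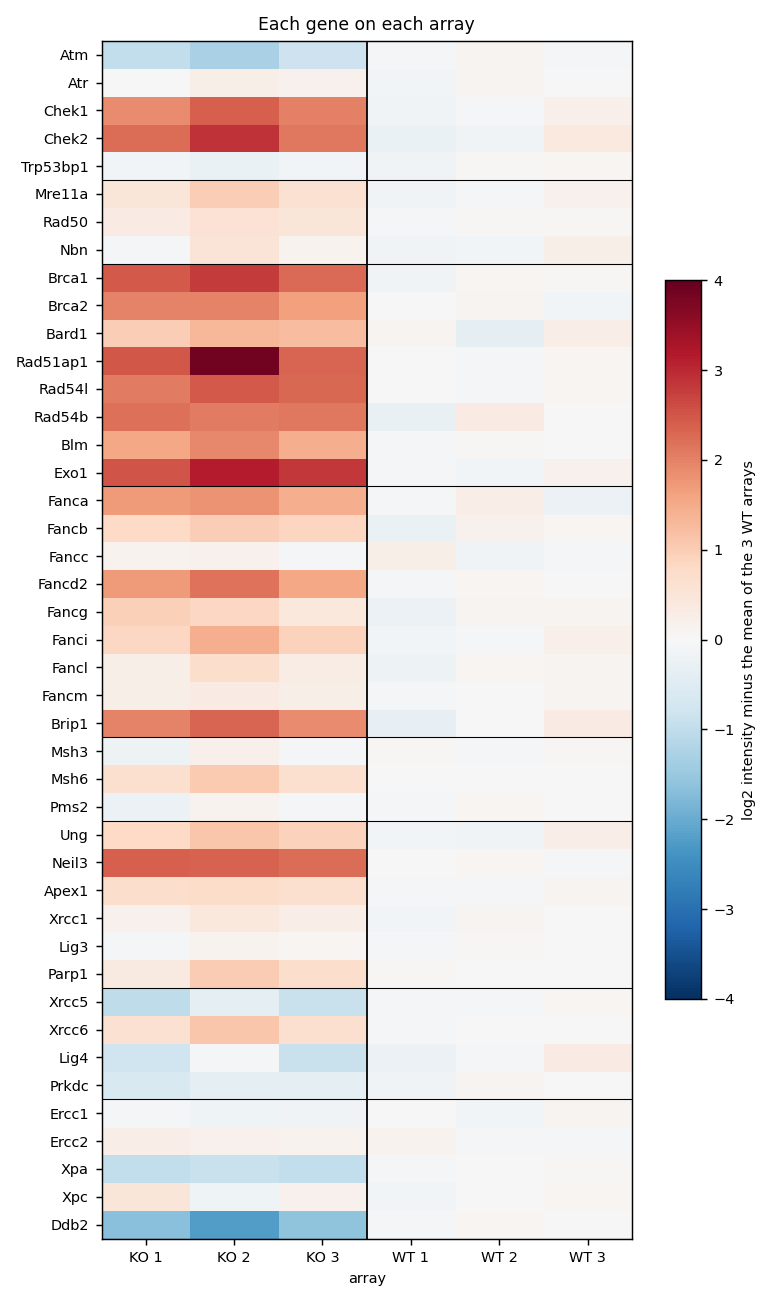
Log2 intensity of the 43 genes on each array minus the mean of the 3 WT arrays, red above and blue below, with lines between pathways. The recombination block is red on all 3 KO arrays, and Atm, Xpa and Ddb2 are blue on all 3.

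For 29 of the 43 genes the array carries further probe sets, 60 in all, which measure other parts of the same transcripts. Of 18 such probe sets that belong to genes that changed and reach the median level of all probe sets, 16 gave the same call and 2 did not pass. Of 17 dimmer ones, 3 gave the same call, 13 did not pass and 1 gave the opposite call. Exo1, for example, rose at all 3 of its probe sets, by 2.83, 1.51 and 0.94, and Brca1 at 3 of 4, by 2.51, 1.24 and 0.95. The level compared with that median was the mean over KO and WT, so a rise in KO itself lifts a probe set past the cut. The Exo1 probe set that rose by 1.51 (6.71 in KO, 5.20 in WT) passed the median of 5.77 only through KO. So did probe sets of Rad51ap1 (8.41 in KO, 5.14 in WT), Chek1 (7.90 in KO, 5.52 in WT) and Brca1 (6.81 in KO, 5.57 in WT). The same held for Rad54l, with probe sets at 7.76 and 7.61 in KO and 5.34 and 5.20 in WT. The split by brightness therefore cannot show by itself that bright probe sets agree more often. Of the 29 genes called, 24 kept the call whichever array was left out, 21 that rose and 3 that fell (Atm, Xpa and Ddb2).

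**Figure D5:**
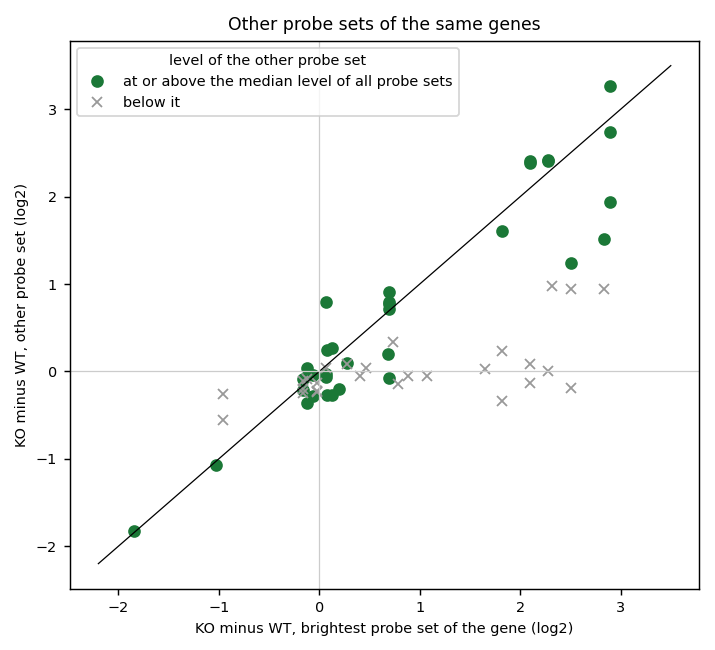
KO minus WT (log2) of each further probe set against that of the brightest probe set of the same gene, with the line of equality; filled circles are probe sets at or above the median level of all probe sets and crosses those below it. The circles of Chek1, Rad54l, Atm and Ddb2 lie near the line, 1 circle of Rad51ap1 lies below it at 1.94 against 2.89, and the crosses gather near 0 on the vertical axis. Some circles, among them those of Rad54l, reach the median level only through KO.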

How the data were processed

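The deposited table holds log2 probe-set intensities that the authors made with RMA (version not given), per the submitters' processing notes, from 1-colour Affymetrix arrays. They were used as deposited, without transformation, filter or pseudocount. The values come without detection calls, and changes of dim probe sets may be compressed. The number of arrays limits the precision. Genotype came from the labels (3 KO and 3 WT, 1 animal per array). Of 45101 probe sets 64 controls were left out. The platform annotation gave 1 gene for 34945 of the remaining 45037, several for 932 and did not list 9160. Of those with 1 gene, 34741 matched the GRCm38.p6 gene table by Entrez ID.

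limma 3.58.1 (R 4.3.3) was fitted to all 45037 probe sets with genotype as its term (lmFit, eBayes), and two-sided p-values were adjusted by Benjamini-Hochberg over them. Rose and fell mean an adjusted p below 0.05. Differences are KO minus WT with moderated standard errors. The procedure was tested on simulated data with independent noise and the same spread in both groups. The KO arrays here spread more widely for these genes, so that test does not vouch for the calls. Of the brightest probe sets, 11 of 43 end in _s_at, _x_at or _a_at; the first 2 kinds can cross-hybridise.

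Per-array values are given for Atm, Atr and, in each pathway, up to 5 called genes with the largest differences and the uncalled gene with the smallest. Of the further lists, up to 3 genes that rose and 3 that fell most are named. The genes, lists, motifs and rules were chosen with earlier results of these data known. The lists come from general knowledge. Motif matches were counted on RefSeq promoters. Alternatives (normalization, weights, filter, probe set rule, block, arrays left out) are given in the closing section. The labels' replicate numbers do not say that a number is a shared litter or day, and the deviations of same-numbered arrays correlated at 0.10, -0.24 and -0.20, so the numbers were not treated as pairs.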

Additional observations from a re-analysis of the deposited data

How the results depend on the processing

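The number of checkpoint and repair genes that rose (24) lay between 22 and 33 under the alternatives tried: quantile normalization again, median centring, hybridization-control scaling, an intensity trend, array weights, a replicate block, removal of probe sets under the median level of 5.77, averaging of probe sets per gene, an adjusted p below 0.10, a minimum of 1.5-fold and each array left out. With the replicate block 24 rose and 5 fell, and 0 of the 43 calls changed. Same-numbered arrays share only a number. Hybridization-control scaling shifts every difference by the same amount, set by the controls, which averaged 9.85 in KO and 10.21 in WT. It puts the median over probe sets at 0.29, against -0.08 as deposited. Under it 3 repair genes fell, and no share of all genes is given for that scaling. Of the 102 further genes 62 rose and 5 fell, so that 92.5% of calls were rises, against 61.8% as deposited. A minimum of 1.5-fold left 9 falls among them, by construction. With each array left out in turn, 14 to 21 of them fell.

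No called repair gene turned its sign in a fit of its brightest probe set. Among uncalled genes, quantile normalization put Fancc at -0.0246 and Lig3 at -0.0031. Hybridization-control scaling put Trp53bp1 at 0.20, Msh3 at 0.34, Pms2 at 0.30 and Ercc1 at 0.24, and also Rad9a, which had a call, at 0.0449. Over the arrays left out, Msh3 ranged between -0.1339 and 0.0717, Pms2 between -0.1637 and 0.0191 and Xpc between -0.0017 and 0.316. Averaging probe sets put Ercc2 at -0.0035. Further probe sets of the opposite sign stood at -0.273 (Atr), -0.1318 (Chek1), -0.194 (Brca1), -0.056 (Fancb), -0.2647 (Fancc), -0.3421 (Fancd2), -0.0521 (Fanci), -0.0555 (Fancl), -0.0267 and -0.0636 (Lig3), -0.073 (Parp1), -0.139 (Xrcc6), 0.0402 (Ercc1) and -0.199 (Ercc2). Array weights gave calls to Fancm (0.28) and Lig4 (-0.69). Removing dim probe sets took Rad54b out of the fit. Bard1 and Brip1 stayed in only through KO, at 6.45 and 7.44 there beside 5.27 and 5.38 in WT. Apart from the common shift of the scaling and what thresholds make by construction, the cause was not tested.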
